A study of Mus musculus with 6 samples.

Results

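Hedgehog receptors and Gli factors are described here in 6 mouse leg tumors that carried a fusion gene of synovial sarcoma. The 9 genes, out of 17312 in the deposited expression table, were chosen by name: the ligand-binding receptors and co-receptors Ptch1, Hhip, Cdon and Boc, the signal transducer Smo, the inhibitor Sufu, and the transcription factors Gli1, Gli2 and Gli3. All 9 were found and all 9 passed the filter on low values, which asked for at least 1 FPKM in at least 3 tumors and left 13873 genes. FPKM counts sequenced fragments per length of transcript and per size of library.

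The 3 SS18-SSX2 tumors came from mice with a Cre-lox inducible allele of SS18-SSX2, and the 3 SS18-SSX1 tumors from mice with a Cre-lox inducible allele of SS18-SSX1. The fusion links SS18, a subunit of the BAF complex that moves nucleosomes, with part of an SSX protein. In both genotypes the allele was switched on by TATCre, which is Cre recombinase with a tag for uptake by cells, injected in front of the shin, and tumors were taken about 1 year later without any treatment. Which cells were recombined, the strain and the sex are not given in the labels, and no normal tissue was analysed here.

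In the Hedgehog pathway a secreted ligand binds the receptor Ptch1, which otherwise holds the membrane protein Smo inactive. Active Smo, in the primary cilium, frees Gli proteins from the inhibitor Sufu, so that Gli2 acts mainly as an activator and less of Gli3 is cut into a repressor. Gli1, Ptch1 and Hhip are themselves transcribed in response, which makes them the usual readouts of the pathway, and Ptch1 and Hhip then damp the signal by binding ligand. The pathway patterns the limb bud, and in adult muscle and other organs Gli1 marks mesenchymal cells around vessels.

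Of the 9 genes, 7 have a promoter window in the RefSeq table used here (GRCm38.p6), which runs from 250 bases before a start to 50 after it, and Gli1 and Boc do not. The upstream parts of the Ptch1 and Hhip windows are shown because these receptors are textbook targets of the Gli factors. They are written 5′ to 3′ on the minus strand of both genes, with every CG dinucleotide in capitals. The Ptch1 sequence lies at chr13:63565736-63565985 and the Hhip sequence at chr8:80058009-80058258.
Ptch1: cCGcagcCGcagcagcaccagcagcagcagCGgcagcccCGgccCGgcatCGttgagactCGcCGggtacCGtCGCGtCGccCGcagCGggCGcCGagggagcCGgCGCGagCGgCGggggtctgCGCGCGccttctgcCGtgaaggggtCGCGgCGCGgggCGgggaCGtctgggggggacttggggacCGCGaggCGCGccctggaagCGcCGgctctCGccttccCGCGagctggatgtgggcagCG
Hhip: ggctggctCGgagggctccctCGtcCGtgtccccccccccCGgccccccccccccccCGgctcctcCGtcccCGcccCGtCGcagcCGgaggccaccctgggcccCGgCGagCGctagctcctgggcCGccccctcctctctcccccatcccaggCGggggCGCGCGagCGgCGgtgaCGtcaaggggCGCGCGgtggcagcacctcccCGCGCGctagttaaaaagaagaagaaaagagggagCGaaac
These 250 bases hold 41 CG dinucleotides in Ptch1 and 28 in Hhip, against a median of 16 before the starts of 12864 windows of tested genes, and 78.4% of the Ptch1 bases are G or C. The Gli consensus GACCACCCA was searched on both strands, as was the same motif with its middle base free (GACCNCCCA), so that each match to the consensus is also a match to the looser motif. Neither occurs in any of the 7 windows of 300 bases, and they occur in 0.187% and 1.12% of the windows of tested genes. The annotated Ptch1 gene reaches further upstream than this start, to base 63573598, and that stretch was not searched. The Cdon window lies inside its annotated gene, from base 35451826 of chromosome 9, whereas that gene begins at base 35421128. The Gli3 window also lies inside its annotated gene, from base 15463473 of chromosome 13, whereas that gene begins at base 15463235. The annotated starts of Cdon and Gli3 were therefore not searched either.

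The libraries held between 7285834 reads (SS18-SSX2 tumor 2) and 17546237 reads (SS18-SSX1 tumor 3) (totals inferred from the spacing of low values). At that depth 1 read in a transcript of 1 kb was worth 0.137 FPKM in the shallowest library and 0.0570 FPKM in the deepest. Tumor 2 of each genotype was rich in skeletal muscle RNA, with Acta1, the actin of muscle fibres, at 1219 FPKM there for SS18-SSX2 and 2772 FPKM for SS18-SSX1, and at 33.2 to 81.8 FPKM in the other 4. A list of 22 muscle fibre genes had a mean log2(FPKM + 1) of 6.42 in SS18-SSX2 tumor 2 and 7.56 in SS18-SSX1 tumor 2, against 2.23 to 3.30 elsewhere. A list of 10 mast cell genes stood at 6.68 in SS18-SSX1 tumor 3 and at 1.05 to 3.07 elsewhere, with the mast cell protease Cma1 at 624.8 FPKM in that tumor and at most 17.5 FPKM in any other. Macrophage genes (15) ranged over 2.75 to 4.50 in SS18-SSX2 tumors and 1.91 to 4.05 in SS18-SSX1 tumors, fibroblast genes (12) over 4.57 to 4.76 and 3.00 to 4.98, pericyte and smooth muscle genes (13) over 3.20 to 3.37 and 2.49 to 3.06, and Schwann cell genes (9 of 10 in the table) over 2.10 to 2.23 and 2.09 to 2.22. No gene of any of the 9 marker lists that is in the table was at 0 in all tumors. Of 14 genes listed as markers of synovial sarcoma, 12 are in the table, and their mean level was 4.08 to 4.42 in all 6 tumors. The Y-linked gene Ddx3y had 28.2 to 35.2 FPKM in the SS18-SSX1 tumors and at most 0.0148 FPKM in the SS18-SSX2 tumors, so a difference in sex and the genotype cannot be told apart in any comparison. Since each tumor was measured in bulk, fewer cells of a type and less RNA per cell cannot be told apart either. The labels do not say whether each tumor had its own mouse, and the p-values then cover only the variation among these 6 samples, which may be technical.

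The whole set was expressed, at levels that differed widely between the genes. Ordered by the median over 6 tumors, Smo came first with 84.6 FPKM, followed by Ptch1 with 50.1, Boc with 47.8, Cdon with 44.8, Gli1 with 33.9, Hhip with 24.8, Gli3 with 17.1, Gli2 with 16.6 and Sufu with 9.02 FPKM. Of the 8 pairs of neighbours in this order only Gli2 above Sufu held in all 6 tumors. Gli1 exceeded Hhip in 5 of 6 tumors and Hhip exceeded Gli3 in 5 of 6, whereas Ptch1 and Boc, and likewise Gli3 and Gli2, were each ahead in 3 tumors and Boc exceeded Cdon in only 2. Among 12468 tested protein-coding genes Smo stood at percentile 95.2 to 98.4 over the 6 tumors, Gli1 at 76.4 to 95.4, Ptch1 at 81.6 to 98.6 and Sufu at 25.1 to 49.3.

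**Figure D1:**
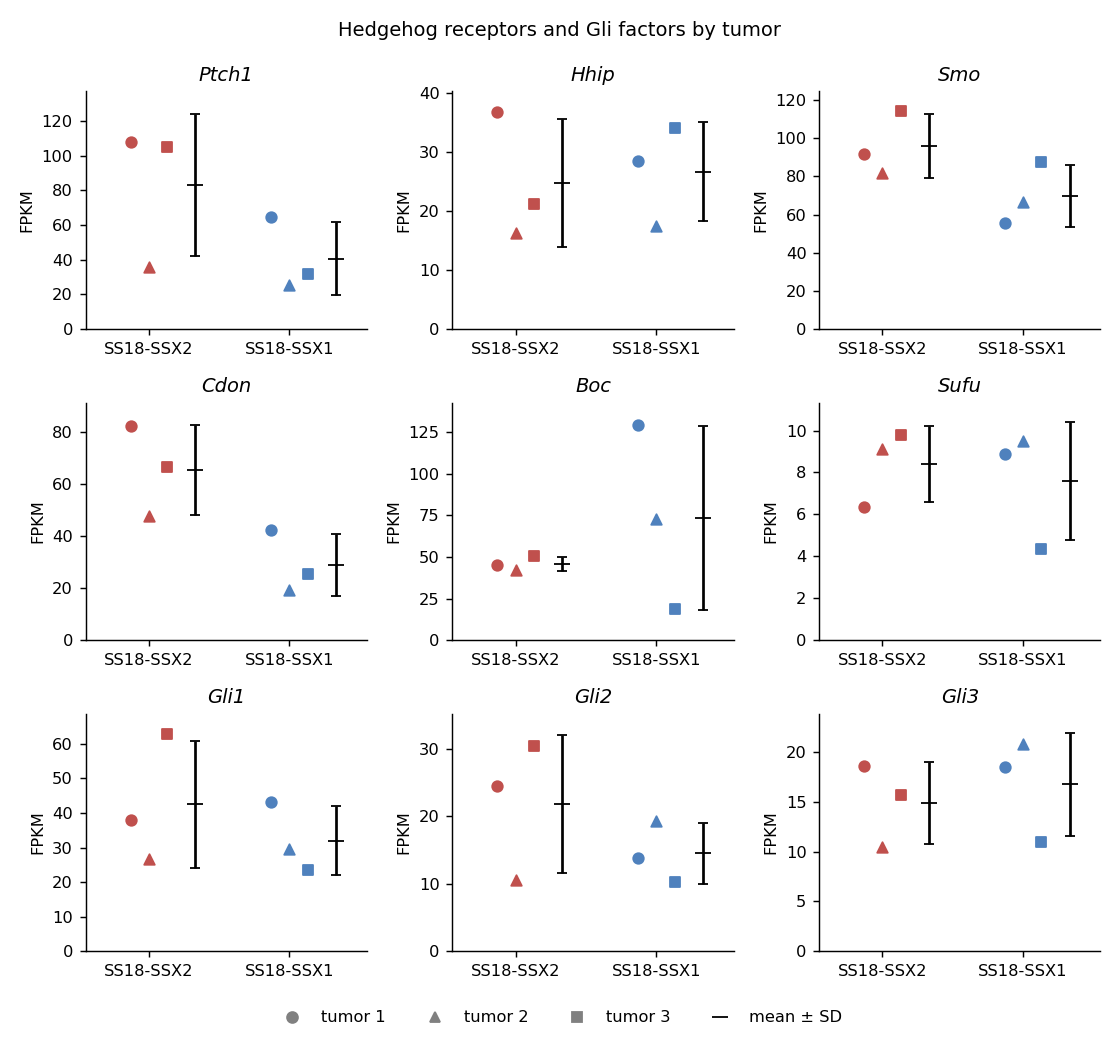
FPKM of the 9 genes in each tumor, SS18-SSX2 in red and SS18-SSX1 in blue, with circles, triangles and squares for tumors 1, 2 and 3 and black bars for the mean ± SD (n = 3). Cdon is the only panel in which the genotypes do not overlap, and Boc spans 18.5 to 129 FPKM within the SS18-SSX1 tumors.

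Between genotypes none of the 9 genes was called, where limma with Benjamini-Hochberg adjustment called 0.0649% of all 13873 tested genes (9 genes) at an adjusted p under 0.05, 0.0432% higher and 0.0216% lower in SS18-SSX2 tumors. The called genes include the sex-linked Ddx3y, lower in SS18-SSX2 tumors, and Xist, higher there (limma adjusted p = 0.000836 and 0.0413). Of the Hedgehog genes 6 had a higher and 3 a lower mean log2(FPKM + 1) in SS18-SSX2 tumors, against 51.1% of all tested genes with a higher mean, and their median log2 fold change was 0.36 against 0.01 over all tested genes. That median was 0.07 without SS18-SSX2 tumor 3, 0.16 without SS18-SSX1 tumor 3, 0.57 without SS18-SSX2 tumor 2, 0.55 without both muscle-rich tumors and 0.64 with tumor weights. The genotypes did not overlap for 1 of the 9 genes, 11.1%, which is near the 8.72% of all tested genes for which they did not overlap in either direction (4.97% higher and 3.76% lower in SS18-SSX2 tumors). At an unadjusted p under 0.05 there was likewise 1 gene, against 4.97% of all tested genes.

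Cdon, a cell surface protein of the immunoglobulin family that binds Hedgehog ligand together with Ptch1, was the gene whose groups did not overlap. It had 82.0, 47.4 and 66.5 FPKM in SS18-SSX2 tumors 1, 2 and 3, and 42.1, 19.3 and 25.3 FPKM in SS18-SSX1 tumors 1, 2 and 3. Every SS18-SSX2 tumor was thus above every SS18-SSX1 tumor, although SS18-SSX2 tumor 2 and SS18-SSX1 tumor 1 were only 47.4 against 42.1 FPKM. The means were 65.3 ± 17.3 and 28.9 ± 11.9 FPKM (SD, n = 3 each), a ratio of 2.26. On the log2(FPKM + 1) scale, which understates changes of low genes, the difference was 1.19 with SE 0.36 and a 95% interval of 0.36 to 2.01. It did not pass over all genes (limma, adjusted p = 0.6997), and its unadjusted limma p was 0.0106. Without tumor 2 of each genotype the difference was 1.15. Other lists also leaned higher in SS18-SSX2 tumors. The mean levels of pericyte and smooth muscle genes did not overlap, with 10 of 12 tested genes higher and 2 lower. Only Acta2 and Tagln of these 12 had groups without overlap, 16.7% against 8.72% of all tested genes. Acta2, the smooth muscle actin, was at 23.6 ± 4.37 FPKM in SS18-SSX2 tumors and 4.09 ± 0.874 FPKM in SS18-SSX1 tumors (SD, n = 3 each, limma adjusted p = 0.0474). Des, of the same list, had 140 and 202 FPKM in the muscle-rich tumors and 3.99 to 9.16 FPKM elsewhere. All 10 proliferation genes had a higher mean in SS18-SSX2 tumors. Within each genotype Cdon was lowest in the muscle-rich tumor 2. The part of these cells, of muscle or of proliferation in the Cdon values was not tested.

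Boc, the closest relative of Cdon and also a co-receptor, followed another pattern. It had 44.9, 42.4 and 50.7 FPKM in SS18-SSX2 tumors 1, 2 and 3, and 129, 73.1 and 18.5 FPKM in SS18-SSX1 tumors 1, 2 and 3. The SS18-SSX2 tumors were thus close together, with an SD of 4.23 FPKM, and lay inside the wide range of the SS18-SSX1 tumors, whose SD was 55.4 FPKM. The highest tumor had 6.995 times the FPKM of the lowest, the widest span of the 9 genes. The log2 difference of -0.29 (SE 0.63, limma adjusted p = 0.997) rested on single tumors, at 0.30 without SS18-SSX1 tumor 1 and -1.07 without SS18-SSX1 tumor 3. The lowest Boc value was that of the tumor rich in mast cell RNA, and the part of those cells in it was not tested.

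The balance of the co-receptors therefore differed between tumors. Cdon exceeded Boc 1.83-fold, 1.12-fold and 1.31-fold in SS18-SSX2 tumors 1, 2 and 3 and 1.37-fold in SS18-SSX1 tumor 3, whereas it was 0.326 and 0.264 times the Boc level in SS18-SSX1 tumors 1 and 2. The genotypes thus overlapped. Gas1, another co-receptor, had 20.3, 44.2 and 30.3 FPKM in SS18-SSX2 tumors and 57.04, 91.3 and 34.01 FPKM in SS18-SSX1 tumors (log2 difference -0.88, SE 0.43, limma adjusted p = 0.997).

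Ptch1, the receptor that keeps Smo inactive, divided the tumors in another way than by genotype. SS18-SSX2 tumors 1 and 3 had 108 and 105 FPKM and SS18-SSX2 tumor 2 had 35.5 FPKM, while SS18-SSX1 tumors 1, 2 and 3 had 64.7, 25.5 and 31.6 FPKM. The 3 tumors with the highest levels were thus SS18-SSX2 tumors 1 and 3 and SS18-SSX1 tumor 1. The mean of 83.0 ± 41.1 FPKM in SS18-SSX2 tumors was 2.04 times the 40.6 ± 21.1 FPKM in SS18-SSX1 tumors (SD, n = 3 each), with a log2 difference of 0.97 (SE 0.52, 95% interval -0.24 to 2.17, limma adjusted p = 0.997). It was 1.49 without SS18-SSX2 tumor 2 and 0.69 with the muscle level as a covariate.

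Markers of other cell types moved with or against Ptch1. A list of 12 endothelial genes had mean log2 levels of 3.52, 2.18 and 3.46 in SS18-SSX2 tumors 1, 2 and 3 and of 3.48, 1.87 and 2.74 in SS18-SSX1 tumors 1, 2 and 3, and the 3 tumors highest for this list were the 3 highest for Ptch1. In tumor 2 of each genotype the muscle list was highest, and Ptch1, Cdon and Hhip each had their lowest level of that genotype. Macrophage genes (15) ran the other way, at 2.86, 4.50 and 2.75 in SS18-SSX2 tumors and 1.91, 3.905 and 4.05 in SS18-SSX1 tumors. Their 3 lowest tumors were the 3 highest for Ptch1. Proliferation genes, 10 in the list, stood at 4.39, 2.83 and 4.04 in SS18-SSX2 tumors and 2.82, 2.31 and 3.22 in SS18-SSX1 tumors. The part of these cell types or of proliferation in the Ptch1 values was not tested.

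**Figure D2:**
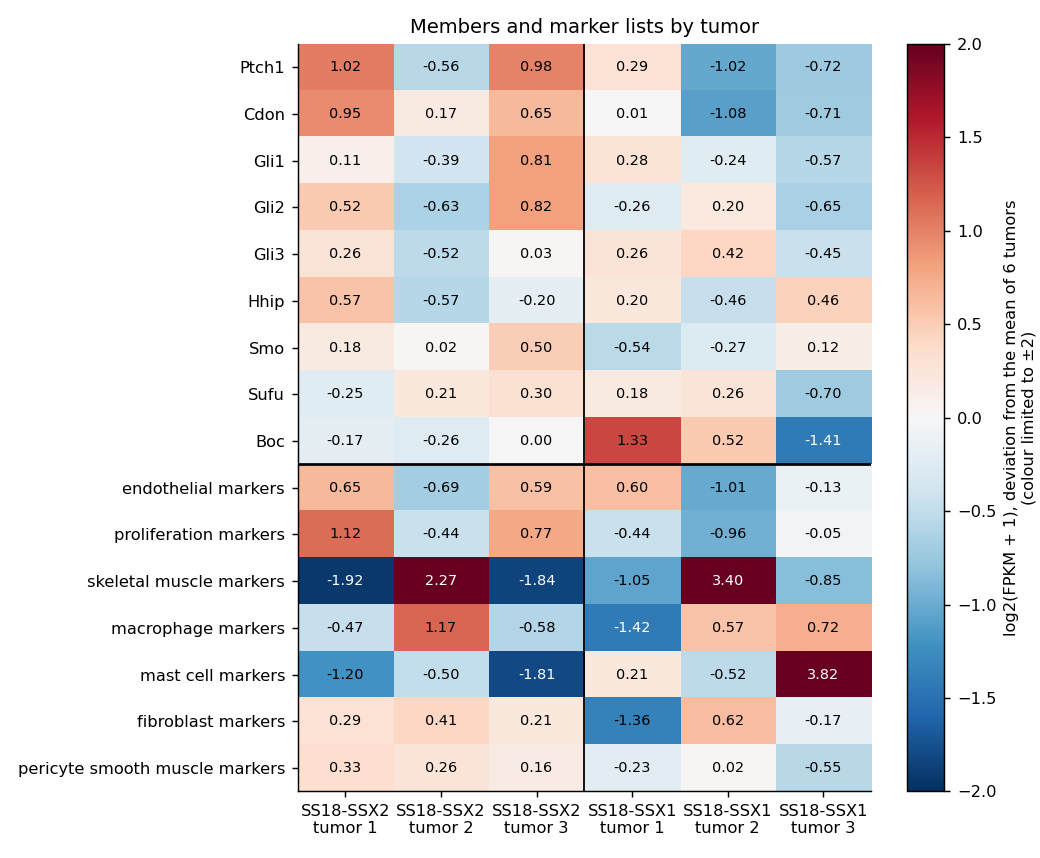
Deviation of log2(FPKM + 1) in each tumor from the mean of the 6 tumors, for the 9 genes (above the line) and for the mean of 7 of the marker lists (below it), with SS18-SSX2 tumors left of SS18-SSX1 tumors and red for higher values. Ptch1, Gli1 and the endothelial markers share positive values in SS18-SSX2 tumors 1 and 3 and SS18-SSX1 tumor 1 and are negative elsewhere. Macrophage markers have the opposite signs. Cdon is also positive in SS18-SSX2 tumor 2, at 0.17, and close to its mean in SS18-SSX1 tumor 1, at 0.01.

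Hhip, a decoy receptor that binds ligand without passing on a signal, differed in pattern from Ptch1, although both were lowest in tumor 2 of each genotype. The part of muscle in the Hhip values was not tested. It had 36.8, 16.2 and 21.2 FPKM in SS18-SSX2 tumors 1, 2 and 3, and 28.4, 17.5 and 34.1 FPKM in SS18-SSX1 tumors 1, 2 and 3. The groups overlapped fully and the log2 difference was -0.13 (95% interval -1.003 to 0.73, limma adjusted p = 0.997). In SS18-SSX1 tumor 3 Hhip reached 1.08 times the Ptch1 level, whereas it was 0.201 to 0.687 times Ptch1 in the other 5 tumors.

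Smo had the highest median of the 9 genes and the lowest SD on the log2 scale. It had 91.6, 81.7 and 114 FPKM in SS18-SSX2 tumors 1, 2 and 3, and 55.3, 66.6 and 87.5 FPKM in SS18-SSX1 tumors 1, 2 and 3. The SD of its log2(FPKM + 1) over 6 tumors was 0.36, against a median of 0.41 over all tested genes and 0.51 over the 9 genes. SS18-SSX2 tumors averaged 95.9 ± 16.8 FPKM and SS18-SSX1 tumors 69.8 ± 16.3 FPKM (SD, n = 3 each), a log2 difference of 0.46 with a 95% interval of -0.23 to 1.15 (limma adjusted p = 0.997). Because Ptch1 varied more than Smo, the level of Smo relative to Ptch1 ran from 0.847 in SS18-SSX2 tumor 1 to 2.77 in SS18-SSX1 tumor 3, with 2.3 in SS18-SSX2 tumor 2, 1.09 in SS18-SSX2 tumor 3, and 0.856 and 2.61 in SS18-SSX1 tumors 1 and 2.

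Sufu, which binds Gli proteins and keeps them from acting, was the least abundant. It had 6.36, 9.13 and 9.77 FPKM in SS18-SSX2 tumors 1, 2 and 3, and 8.90, 9.50 and 4.37 FPKM in SS18-SSX1 tumors 1, 2 and 3. The groups overlapped, with a log2 difference of 0.18 (95% interval -0.62 to 0.97, limma adjusted p = 0.997).

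Gli1, the transcription factor that is both an effector and a target of the pathway, was at 38.1, 26.7 and 62.8 FPKM in SS18-SSX2 tumors 1, 2 and 3, and at 43.1, 29.6 and 23.4 FPKM in SS18-SSX1 tumors 1, 2 and 3. SS18-SSX2 tumor 3 was the highest, and the genotypes overlapped. The 3 tumors highest for Gli1 were those of Ptch1. The means were 42.5 ± 18.5 FPKM and 32.1 ± 10.1 FPKM in SS18-SSX2 and SS18-SSX1 tumors (SD, n = 3 each), with a log2 difference of 0.36 (95% interval -0.51 to 1.22, limma adjusted p = 0.997). It was 0.04 without SS18-SSX2 tumor 3. Relative to Ptch1, Gli1 was lowest in SS18-SSX2 tumor 1, at 0.352, and highest in SS18-SSX1 tumor 2, at 1.16.

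Gli2, the main activator, had 24.5, 10.5 and 30.4 FPKM in SS18-SSX2 tumors 1, 2 and 3, and 13.8, 19.3 and 10.3 FPKM in SS18-SSX1 tumors 1, 2 and 3. Gli3, the main repressor, had 18.6, 10.4 and 15.7 FPKM in SS18-SSX2 tumors and 18.5, 20.8 and 10.9 FPKM in SS18-SSX1 tumors. The genotypes overlapped for each gene, and the muscle-rich tumors lay at opposite ends, since for both genes SS18-SSX2 tumor 2 was the lowest of its genotype and SS18-SSX1 tumor 2 the highest. The log2 differences were 0.48 for Gli2 (SE 0.42) and -0.15 for Gli3 (SE 0.33), both with a limma adjusted p of 0.997. Without tumor 2 of each genotype they were 1.13 for Gli2 and 0.24 for Gli3 (limma adjusted p = 0.439 and 0.952), whereas leaving out tumor 3 of SS18-SSX2 alone put Gli2 at 0.19, leaving out tumor 3 of SS18-SSX1 put it at 0.27, and leaving out tumor 2 of SS18-SSX2 put it at 0.91. By the inferred totals, the shallowest library held 525 reads of Gli2 and 727 of Gli3.

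The ratio of Gli2 to Gli3 within a tumor is given as a description, since the 7 ratios looked at were chosen with the values of the 9 genes in view. It was 1.32, 1.01 and 1.94 in SS18-SSX2 tumors 1, 2 and 3, and 0.748, 0.930 and 0.940 in SS18-SSX1 tumors 1, 2 and 3. All SS18-SSX2 tumors were above all SS18-SSX1 tumors, but SS18-SSX2 tumor 2 and SS18-SSX1 tumor 3 were nearly level. The mean log2 ratio differed by 0.66 (exact permutation test, adjusted p = 0.42 over the 7 ratios). Complete separation of 3 tumors from 3 gives an unadjusted p of 0.1 in this test, its smallest value. The test therefore could not pass and decides nothing about the ratio. The genotypes overlapped for the other 6 ratios.

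**Figure D3:**
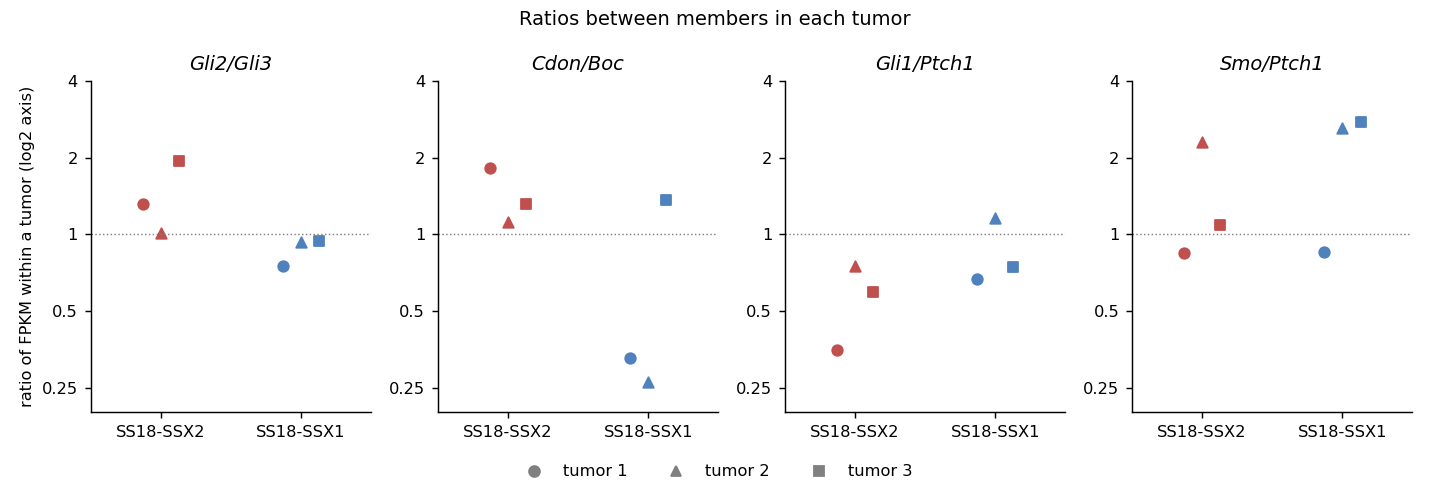
Ratio of FPKM between pairs of genes in each tumor on a log2 axis, SS18-SSX2 in red and SS18-SSX1 in blue, with the dotted line at equal levels. Gli2 over Gli3 is at 1.01 or above in all SS18-SSX2 tumors and at 0.940 or below in all SS18-SSX1 tumors, while the genotypes overlap in the other pairs shown.

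**Figure D4:**
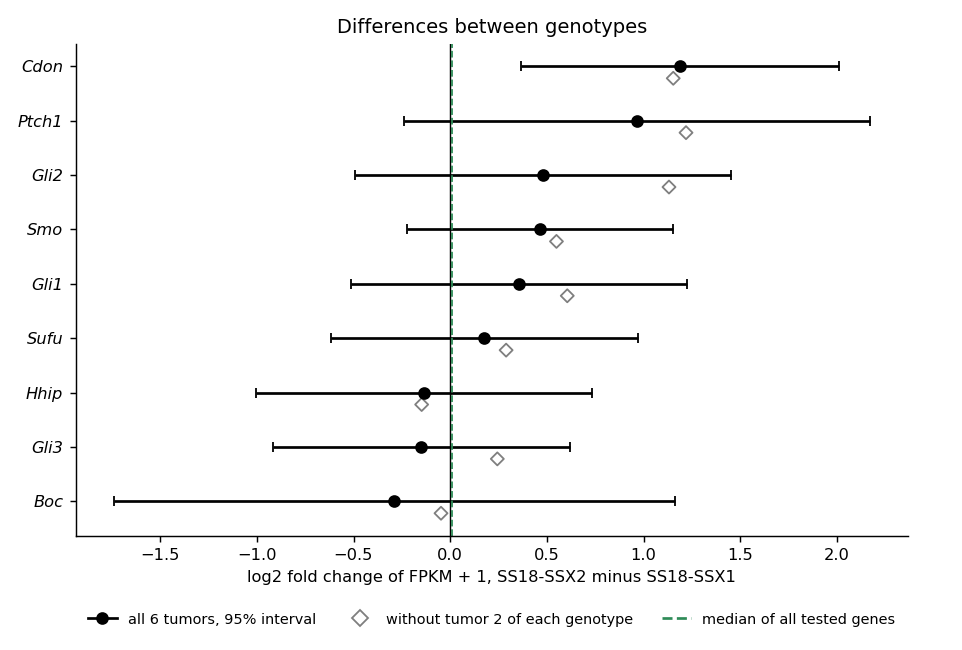
Log2 fold change of FPKM + 1 (SS18-SSX2 minus SS18-SSX1) for each gene, with black points and bars for the limma estimate and its 95% interval, open diamonds for the estimate without tumor 2 of each genotype and a dashed line for the median of all tested genes. The interval of Cdon alone excludes 0, before any adjustment over genes.

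Over the 6 tumors the protein-coding genes whose profile was nearest to that of Gli1, after centring each gene's log2(FPKM + 1), were Ttc28 (root mean square difference 0.108), Itpr3 (0.126) and Ephb3 (0.133). Those nearest to Ptch1 were Nlgn3 (0.110), Kntc1 (0.145) and Grik3 (0.157). The median over the 12459 genes compared was 0.594 from Gli1 and 0.890 from Ptch1. Within the set Gli2 was nearest to Gli1, at 0.348, and Cdon was nearest to Ptch1, at 0.350, while Gli1 and Ptch1 were 0.503 apart. With 6 tumors such a list describes these samples only.

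The rest of the pathway was read from 5 lists with 103 genes, of which 102 are in the table and 93 were tested. None was called (limma, lowest adjusted p = 0.479), and 5 of the 93 had an unadjusted p under 0.05, or 5.38% against 4.97% of all tested genes. The genotypes did not overlap for 8 of the 93 genes, 8.6%, which is near the 8.72% of all tested genes. Of the 8 genes 7 were higher and 1 lower in SS18-SSX2 tumors, where all tested genes gave 4.97% higher and 3.76% lower. Among the 7 is Lrp2, which passed the filter only through the SS18-SSX2 tumors and therefore could not overlap. The median log2 fold change of the 93 was 0.12.

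Both ligands in the table, Shh and Ihh, were low. Shh, the ligand of limb patterning, had 3.09, 1.94 and 4.04 FPKM in SS18-SSX2 tumors and 3.71, 1.30 and 2.33 FPKM in SS18-SSX1 tumors (log2 difference 0.25, SE 0.37, limma adjusted p = 0.997). Ihh, the ligand of growing cartilage, stayed below the filter with 0.479, 0.112 and 0.257 FPKM in SS18-SSX2 tumors and 0.184, 0.0595 and 0.0933 FPKM in SS18-SSX1 tumors. Dhh, the ligand made by Schwann cells, was not analysed here. Of the genes for ligand release, Scube2 had 19.4, 17.9 and 14.9 FPKM in SS18-SSX2 tumors and 77.1, 14.8 and 46.6 FPKM in SS18-SSX1 tumors, so that the groups overlapped through SS18-SSX1 tumor 2. Scube1 had 23.1, 6.63 and 29.1 FPKM in SS18-SSX2 tumors and 41.0, 59.0 and 19.2 FPKM in SS18-SSX1 tumors, and Scube3, of the same family of secreted proteins, averaged 38.1 ± 0.855 and 33.1 ± 10.02 FPKM in SS18-SSX2 and SS18-SSX1 tumors (SD, n = 3 each). Disp1, which exports the ligand, had 9.09, 4.78 and 8.16 FPKM in SS18-SSX2 tumors and 5.07, 4.50 and 4.72 FPKM in SS18-SSX1 tumors. All 6 tested genes of this list had groups that overlapped, with 4 higher and 2 lower in SS18-SSX2 tumors.

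Among the other receptors, 2 of 5 tested genes did not overlap and both were higher in SS18-SSX2 tumors, against 8.72% of all tested genes without overlap and 4.97% without overlap and higher. Lrp2, an endocytic receptor that binds Shh, had 3.52, 1.21 and 3.25 FPKM in SS18-SSX2 tumors and 0.382, 0.361 and 0.0853 FPKM in SS18-SSX1 tumors (log2 difference 1.46, SE 0.37, limma adjusted p = 0.587). It passed the filter only through the SS18-SSX2 tumors, so its lack of overlap and its direction were fixed by the filter. Gpc5, of the same list, reached 10.4 FPKM in SS18-SSX1 tumor 1 but did not pass the filter. Ptchd1, a membrane protein with a patched domain, had 11.1, 9.87 and 8.27 FPKM in SS18-SSX2 tumors and 1.82, 4.30 and 3.24 FPKM in SS18-SSX1 tumors (1.42, SE 0.32, limma adjusted p = 0.479). Neither passed over all genes.

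Of 17 tested genes known as Hedgehog targets, 12 had a higher and 5 a lower mean in SS18-SSX2 tumors, with a median log2 fold change of 0.35. The rest of the 24 listed targets lay below the filter. Of these Pax1, Pax9 and Hsd11b1 had a higher mean FPKM in SS18-SSX2 tumors, and Foxl1, Foxc2, Sfrp1 and Nkx3-2 a lower one. Only Foxc2 of them did not overlap, at 0.329, 0.303 and 0.230 FPKM in SS18-SSX2 tumors and 2.57, 0.640 and 0.942 FPKM in SS18-SSX1 tumors. Ccnd2, a D-type cyclin that many pathways induce, had 799.6, 725 and 749 FPKM in SS18-SSX2 tumors and 169, 231 and 271 FPKM in SS18-SSX1 tumors. The groups were far apart, yet the log2 difference of 1.78 (SE 0.45) did not pass over all genes (limma adjusted p = 0.587). Jag2, a Notch ligand, had 11.3 ± 4.75 and 5.18 ± 2.29 FPKM in SS18-SSX2 and SS18-SSX1 tumors, and Foxd2, a forkhead factor, had 15.5 ± 3.08 and 8.37 ± 4.16 FPKM (SD, n = 3 each, limma adjusted p = 0.9898 and 0.951). Cdk6, a kinase of the G1 phase, had 7.92 ± 3.71 and 4.02 ± 2.67 FPKM. All 10 genes of the proliferation list also had a higher mean in SS18-SSX2 tumors (median log2 fold change 0.92, none called), and the part of proliferation in the values of these targets was not tested.

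Of the 27 regulators between Smo and Gli, all of them tested, 15 had a higher mean in SS18-SSX2 tumors and 12 a lower one. Their median log2 fold change was 0.12, and the genotypes did not overlap for 3 of them, Kif7, Iqce and Prkacb (11.1%, against 8.72% of all tested genes). Kif7, the ciliary kinesin that holds Gli proteins, had 6.56, 6.58 and 10.2 FPKM in SS18-SSX2 tumors and 6.51, 5.20 and 3.85 FPKM in SS18-SSX1 tumors. Gpr161, a ciliary receptor that favours Gli3 repressor, had 11.4, 2.62 and 10.2 FPKM in SS18-SSX2 tumors and 5.13, 2.99 and 1.14 FPKM in SS18-SSX1 tumors, and its 3 highest tumors were those of Ptch1. Prkacb, a catalytic subunit of protein kinase A, had 32.7, 29.9 and 27.0 FPKM in SS18-SSX2 tumors and 35.3, 38.1 and 45.8 FPKM in SS18-SSX1 tumors. Kif7, Gpr161 and Prkacb each had a limma adjusted p of 0.997, and the genotypes overlapped for Gpr161.

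All 39 genes of the primary cilium list passed the filter, 22 with a higher mean in SS18-SSX2 tumors, 17 with a lower mean, and a median log2 fold change of 0.03. Kifap3, a subunit of the motor that carries cargo into cilia, had 48.7, 46.0 and 38.6 FPKM in SS18-SSX2 tumors and 26.8, 30.9 and 34.9 FPKM in SS18-SSX1 tumors. Bbs1, a subunit of the BBSome, had 7.05, 9.64 and 8.47 FPKM in SS18-SSX2 tumors and 5.92, 6.32 and 6.29 FPKM in SS18-SSX1 tumors. These were the 2 genes of the list whose groups did not overlap, 5.13% against the 8.72% of all tested genes, and neither passed over all genes (limma adjusted p = 0.997 for each). Ift172, of the intraflagellar transport complex, averaged 24.2 ± 3.49 and 17.7 ± 4.87 FPKM in SS18-SSX2 and SS18-SSX1 tumors, and Ttc21b, of the same transport system, 3.72 ± 0.924 and 2.504 ± 0.589 FPKM (SD, n = 3 each).

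**Figure D5:**
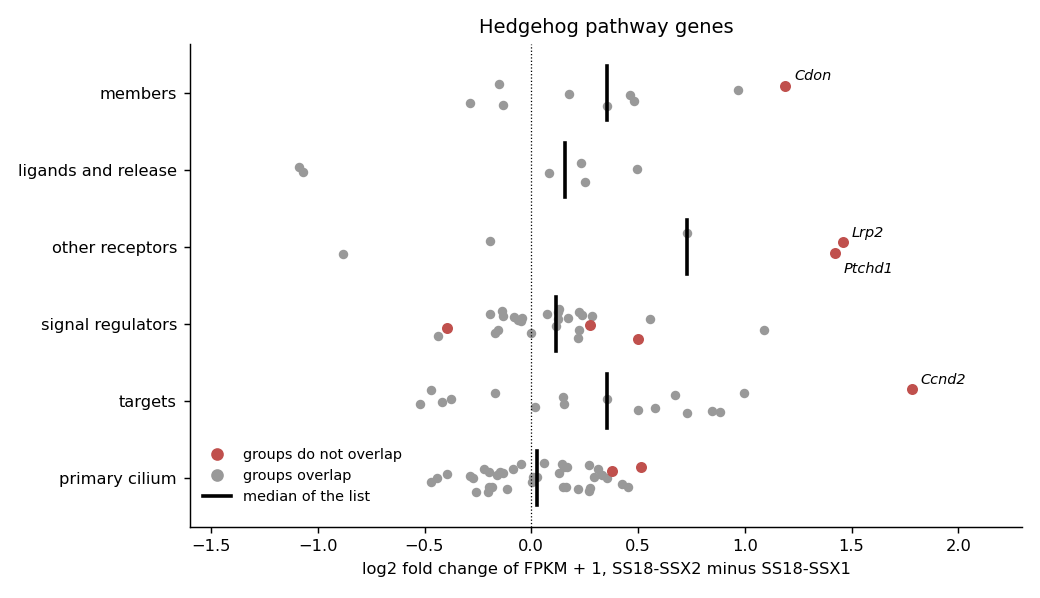
Log2 fold change of FPKM + 1 (SS18-SSX2 minus SS18-SSX1) for each tested gene of the 9 and of the 5 pathway lists, in red where the genotypes do not overlap and grey where they do, with a black line for the median of each list. Cdon, Lrp2, Ptchd1 and Ccnd2 lie above 1 without overlap, and the cilium genes centre near 0. Lrp2 passed the filter only through the SS18-SSX2 tumors, which fixed its lack of overlap.

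On GRCm38 the genes lie on separate chromosomes, apart from Gli3 and Ptch1. Ptch1 (ENSMUSG00000021466) spans 63508328 to 63573598 on chromosome 13 and Gli3 (ENSMUSG00000021318) 15463235 to 15730026 on the same chromosome. Cdon (ENSMUSG00000038119) spans 35421128 to 35507652 on chromosome 9 and Boc (ENSMUSG00000022687) 44485049 to 44558897 on chromosome 16. Gli1 (ENSMUSG00000025407) spans 127329882 to 127341974 on chromosome 10 and Gli2 (ENSMUSG00000048402) 118834132 to 119053619 on chromosome 1. Smo (ENSMUSG00000001761) spans 29735503 to 29761365 on chromosome 6, Hhip (ENSMUSG00000064325) 79965851 to 80058006 on chromosome 8 and Sufu (ENSMUSG00000025231) 46396896 to 46488804 on chromosome 19. The sources used here do not give the strand handling, so reads of genes on the other strand may be included. Exons of the opposite strand cover 62 bases (1.24%) of Gli1 exons in Arhgap9 and 265 bases (5.31%) in Gm47200, 188 bases (1.96%) of Gli3 exons in Gm6556 and 175 bases (1.93%) of Hhip exons in Gm27820.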

How the data were processed

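Total RNA of 6 snap-frozen tumors was made into libraries with Ribo-Zero, which removes ribosomal RNA, per the labels' protocols. The submitters' processing notes list Novoalign 2.08.03 and mm10 without saying what each was used for. The authors deposited FPKM values with 1 column per tumor, while counting tool, gene models and any low-value filter were not given in the sources used here. Columns were matched to tumors by the samples' descriptions. Symbols came from the GENCODE M21 annotation of GRCm38 and were found for 17029 of 17312 gene identifiers.

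Genotypes were compared by limma (version 3.58.1, under R 4.3.3) on log2(FPKM + 1), using lmFit and eBayes with the trend option. Fold changes are SS18-SSX2 over SS18-SSX1 and tests are two-sided, with p-values adjusted by Benjamini-Hochberg across the 13873 genes with at least 1 FPKM in at least 3 tumors and a threshold of 0.05. The fit was tested on simulated data with independent errors for each gene and tumor. Deviations shared by many genes of a tumor, such as those from muscle, were not simulated. Library totals were set from the values of single-exon genes, of which 77.4% to 81.8% of the low ones came out as whole reads within 0.02. Totals are estimates, and floors or intervals from them would cover counting error only. Ratios between genes, 7 in all, were chosen after the values of the 9 genes had been seen and are given as a description. An exact permutation test was run on each, and none passed (adjusted p from 0.42 to 0.6). With 3 tumors per genotype its smallest possible p is 0.1, so it could not pass at 0.05. Tables and figures were made in Python 3.11.15 (numpy 2.4.6, pandas 2.3.3; matplotlib 3.10.9 for plots).

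The text names the 9 genes, up to 4 tested genes of smallest p per pathway list, the ligands, the 3 genes nearest to Gli1 and Ptch1, and leading genes of the marker lists. Some genes that this rule names are not reported here. Iqce, Acta2, Tagln, Des, Xist, the targets below the filter and the genes of the closing section were chosen after their values were seen. The 9 genes and the lists were chosen with earlier results of these data known. The 18 alternatives per test were 2 other pseudocounts, 2 other filters, 3 scalings, 2 variance models, a muscle covariate, a replicate block, the 6 tumors left out in turn, and both muscle-rich tumors left out.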

Additional observations from a re-analysis of the deposited data

How the results depend on the processing

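None of the 9 genes or of the 93 tested pathway genes was called under any of the 18 alternatives. The lowest adjusted p over them was 0.193 for Cdon, 0.307 for Ptch1 and 0.439 for Gli2, in limma. Cdon stayed higher in SS18-SSX2 tumors throughout, by 0.94 to 1.49 on the log2 scale. Over all genes, where 9 were called, the count was 5 with a pseudocount of 0.1, 16 with tumor weights, 20 without both muscle-rich tumors and 3 to 11 with a tumor left out, the lowest without SS18-SSX2 tumor 3. Gli3 turned to 0.24 without both muscle-rich tumors, and the cause was not tested. With a tumor left out, Gli2 ranged from 0.19 to 0.91, Gli3 from -0.41 to 0.072, Hhip from -0.45 to 0.12, Sufu from -0.13 to 0.35 and Boc from -1.07 to 0.30. The order of levels held in every tumor used for 2 neighbour pairs without both muscle-rich tumors, against 1 with all tumors. No scaling changed the direction of any of the 9 genes. Tumors of the same number deviated together for numbers 1 and 2 (r = 0.38 and 0.31 across genes) and not for number 3 (r = -0.28), and the labels do not say what a shared number, or the letter shared by the column names of numbers 2 and 3, stands for. The tumors were therefore not treated as pairs, and a fit with the replicate block called 4 genes and none of the 9. The depth of the libraries limits genes below the filter, such as Ihh.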

Other observations

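Several genes of the pathway lists lay below the filter and belong to no comparison. Gpc5, a glypican that binds Hedgehog ligand, had 0.417, 0.0616 and 0.0626 FPKM in SS18-SSX2 tumors 1, 2 and 3, and 10.4, 0.228 and 1.70 FPKM in SS18-SSX1 tumors 1, 2 and 3, so that SS18-SSX1 tumor 1 held most of it. Foxl1, a forkhead factor of gut mesenchyme, had 4.19 FPKM in the same tumor and at most 0.990 FPKM in any other. Pax9, a factor of the sclerotome, had 3.20 FPKM in SS18-SSX2 tumor 2 and at most 0.177 FPKM elsewhere.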
